A study of Mus musculus with 7 samples.

Results

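The 9 genes examined mark the oligodendrocyte lineage: the transcription factor genes Olig1, Olig2, Sox10 and Nkx2-2, the surface protein genes Pdgfra and Cspg4, the receptor gene Gpr17, and the myelin genes Cnp and Mbp. They were chosen by name, and each gene ID was matched to its symbol in the Gencode annotation of GRCm38 with the version ignored. These are 9 of the 55335 gene IDs in the files, and each of the 9 had counts in every sample. Their levels are given in wild-type (WT) samples, and WT is then compared with samples that carry a null mutation of Smchd1, a gene for a chromatin repressor.

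The samples were neural stem cells (NSCs) of FVB/N mice, grown in culture with EGF and bFGF, which keep such cells dividing. There were 4 samples with the genotype Smchd1 Wild-type and 3 with the genotype Smchd1MommeD1, called *Smchd1*-null here. Polyadenylated RNA was copied to cDNA and sequenced as nanopore long reads without amplification, and reads were counted per gene. WT replicate 2 and *Smchd1*-null replicates 1 and 2 were in batch 1, WT replicates 3 and 4 and *Smchd1*-null replicate 3 were in batch 2, and WT replicate 1 was in both. The age and sex of the mice are not given in the sources used here. Nothing in them states that replicates came from separate animals or cultures, so p-values measure only the spread between these samples.

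Oligodendrocytes make the myelin sheaths of the central nervous system. They arise from oligodendrocyte precursor cells (OPCs), which express Olig1, Olig2, Sox10, Nkx2-2, Pdgfra and Cspg4, pass through a committed stage marked by Gpr17, and then switch on myelin genes such as Cnp and Mbp. Cultured NSCs can give rise to neurons, astrocytes and oligodendrocytes, and OLIG2 is known to be present in dividing NSCs grown with EGF and bFGF, ahead of any choice of that lineage. A bulk sample does not tell more cells of a type from more RNA of a gene per cell.

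Libraries held between 2.74 and 7.74 M counts. Values below are CPM, counts per M (mega) counts of a library size scaled by TMM, and 3 counts correspond to between 0.399 and 1.13 CPM, depending on the sample. Smchd1 had between 55.7 and 74.7 CPM in WT and between 12.8 and 18.4 CPM in *Smchd1*-null samples, without overlap. All 12 NSC markers passed the filter on low counts, with a summed level of 8925 to 13787 CPM in WT and 8566 to 10080 CPM in *Smchd1*-null samples, led by Fabp7 and Vim. WT replicate 4 stood apart from the other 6 samples in the lineage genes, and WT replicate 3 was low in several of them, so results are also given without WT replicate 4, and without WT replicate 3 where that changed a call.

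Olig2 was by far the most abundant of the 9 genes in WT, and Mbp the least, on the scale of CPM per kb of the deposited gene length. The mean level in WT (± SD, n = 4) was 290 ± 30.3 CPM per kb for Olig2, followed by 47.4 ± 21.6 for Cnp, 41.9 ± 2.92 for Olig1, 12.7 ± 4.76 for Nkx2-2 and 12.5 ± 18.2 for Gpr17. The lower levels were 5.44 ± 5.67 CPM per kb for Sox10, 3.79 ± 2.49 for Pdgfra, 3.64 ± 1.52 for Cspg4 and 3.09 ± 5.51 for Mbp. Olig2 was above Cnp, and Olig1 above Nkx2-2, in all 4 WT samples and in all 7 samples. Cnp exceeded Olig1 in 2 of 4 WT samples, so the order of those neighbours was not fixed. From Nkx2-2 down, each neighbour was above the next in 2 or 3 of 4 WT samples, within the spread. Without WT replicate 4 the mean of Gpr17 was 3.43 CPM per kb and that of Mbp 0.339 CPM per kb, and Olig1 (41.6) then stood above Cnp (37.7). Ordered by CPM without division by length, Sox10, with 16.6 CPM, took the last place. Each long read is counted once per cDNA molecule, so both orders are given.

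**Figure D1:**
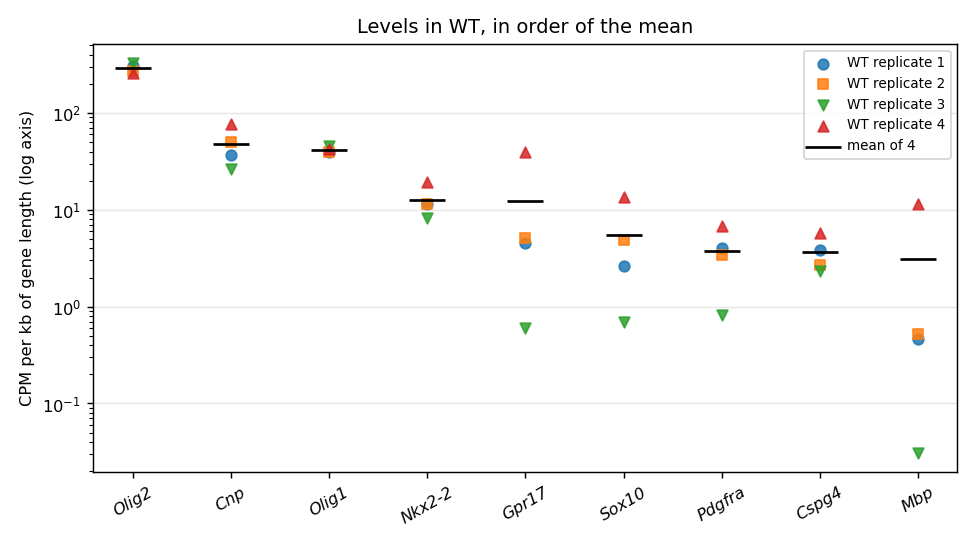
Levels of the 9 genes in the 4 WT samples, in CPM per kb of gene length on a log axis, ordered by the mean of 4 (black bar); symbols mark the replicates. Olig2 lies above all others with a mean of 290 CPM per kb, and the samples spread most widely for Gpr17 and Mbp, where WT replicate 4 is highest and WT replicate 3 lowest.

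Olig1 and Olig2 encode related basic helix-loop-helix factors that specify the lineage, and they were the steadiest of the 9 genes. Olig2 (ENSMUSG00000039830.9) lies at chr16:91225457-91228677 on the + strand, and Olig1 (ENSMUSG00000046160.6) at chr16:91269772-91271933, also on the + strand, with the starts 44315 bases apart. Olig2 had 772, 688, 822 and 654 CPM in WT replicates 1 to 4 and 775, 768 and 747 CPM in *Smchd1*-null replicates 1 to 3. All *Smchd1*-null values lay within the WT range. Levels of Olig1 were 86.0, 85.3, 98.8 and 92.1 CPM in WT and 101.7, 87.3 and 95.5 CPM in *Smchd1*-null samples. The groups overlapped, although the highest value was from a *Smchd1*-null sample. The highest of 7 samples exceeded the lowest 1.19-fold for Olig1 and 1.26-fold for Olig2, and their coefficients of variation over 7 samples were 7.07% and 7.64%. Over all 13305 genes tested, the median coefficient of variation was 20.3%, and 347 genes had a lower one than Olig1. Among the 2154 genes with a mean level at least that of Olig1, the median was 13.4%, and 174 of them were below Olig1.

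The counts of the neighbouring pair were also compared within each library, which needs no library scaling. There were 8.98, 8.07, 8.32 and 7.11 Olig2 counts per Olig1 count in WT replicates 1 to 4, and 7.62, 8.80 and 7.83 in *Smchd1*-null replicates 1 to 3. The log2 ratio of Olig1 to Olig2 averaged -3.02 in the 4 WT samples (SD 0.14) and -3.01 in the 3 *Smchd1*-null samples (SD 0.11), a difference of 0.0041 (p = 0.971, exact permutation test, two-sided, 35 assignments, smallest possible p 0.0286). Olig1 shares 157 bases of exon with Gm15966 on the opposite strand, which had 23 counts over all samples.

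Sox10 and Nkx2-2 encode factors that act further along the lineage: SOX10 activates myelin genes, and NKX2-2 promotes the differentiation of precursors. Sox10 (ENSMUSG00000033006.10, chr15:79154908-79165240, - strand) had 8.06, 14.9, 2.10 and 41.3 CPM in WT replicates 1 to 4, against 6.01, 11.4 and 9.74 CPM in *Smchd1*-null samples. WT replicate 4 was the highest and WT replicate 3 the lowest of all 7, and the *Smchd1*-null samples fell between them. The count in WT replicate 3 was 8, with a 95% exact Poisson interval of 0.906 to 4.13 CPM that covers counting error only. Nkx2-2 (ENSMUSG00000027434.11, chr2:147177546-147194243, - strand) had 33.0, 32.9, 23.9 and 55.9 CPM in WT and 33.8, 25.4 and 30.7 CPM in *Smchd1*-null samples. Apart from WT replicate 4, its 6 samples lay within 1.42-fold. Nkx2-2 overlaps Nkx2-2os on the opposite strand by 278 bases of exon, but only 5 counts were assigned to Nkx2-2os in all.

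The promoters of Olig2 and Nkx2-2 are shown because these factors sit at the start and the middle of the lineage and the helix-loop-helix factors of the family bind E-boxes. Each is 300 bases, from 250 before to 50 after the gene start in RefSeq (GRCm38.p6), written 5′ to 3′ along the gene. The window is chr16:91225300-91225599 (+) for Olig2 and chr2:147186353-147186652 (-) for Nkx2-2. In Gencode, Nkx2-2 starts at 147194243 on the - strand, so its window lies inside that gene and not at its Gencode start. Capitals mark the E-box letters CANNTG, which read the same on both strands. Of the 9 genes, 5 had an entry in the RefSeq promoter table.
Olig2: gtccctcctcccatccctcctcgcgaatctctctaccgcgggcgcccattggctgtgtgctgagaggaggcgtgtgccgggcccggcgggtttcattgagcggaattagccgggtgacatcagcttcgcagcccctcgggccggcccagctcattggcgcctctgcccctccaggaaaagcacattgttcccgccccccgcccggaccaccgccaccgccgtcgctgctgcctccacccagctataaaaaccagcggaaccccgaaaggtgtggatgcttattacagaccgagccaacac
Nkx2-2: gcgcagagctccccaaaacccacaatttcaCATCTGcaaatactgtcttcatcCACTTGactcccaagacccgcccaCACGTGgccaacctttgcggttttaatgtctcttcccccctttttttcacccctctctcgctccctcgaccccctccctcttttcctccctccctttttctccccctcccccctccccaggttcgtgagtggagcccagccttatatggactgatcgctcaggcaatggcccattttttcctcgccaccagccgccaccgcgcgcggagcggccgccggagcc
The window of Olig2 held 0 matches and that of Nkx2-2 held 3, while Pdgfra had 2, Cnp 1 and Cspg4 0. At least 1 match was present in 72.3% of 32841 promoters of this length, with a median of 1. A match describes the letters in this window and is not a measured binding site.

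Pdgfra and Cspg4 mark dividing OPCs: PDGFRA is the receptor for PDGF-A, their main mitogen, and Cspg4 encodes the proteoglycan NG2. Pdgfra (ENSMUSG00000029231.15, chr5:75152292-75198215, + strand) had 40.8, 33.98, 8.13 and 68.9 CPM in WT and 19.1, 10.5 and 26.6 CPM in *Smchd1*-null samples. 3 of the WT samples exceeded every *Smchd1*-null sample, and WT replicate 3 was below all of them. Cspg4 (ENSMUSG00000032911.6, chr9:56865033-56899870, + strand) had 45.4, 32.4, 27.8 and 68.2 CPM in WT and 29.7, 28.7 and 27.3 CPM in *Smchd1*-null samples. The *Smchd1*-null samples were close to each other, at 28.6 ± 1.20 CPM (SD, n = 3), and overlapped WT through WT replicate 3.
The promoter of Pdgfra, the gene with the lowest adjusted p of the 9 in any fit, is printed in the same way, from chr5:75152001-75152300 (+).
Pdgfra: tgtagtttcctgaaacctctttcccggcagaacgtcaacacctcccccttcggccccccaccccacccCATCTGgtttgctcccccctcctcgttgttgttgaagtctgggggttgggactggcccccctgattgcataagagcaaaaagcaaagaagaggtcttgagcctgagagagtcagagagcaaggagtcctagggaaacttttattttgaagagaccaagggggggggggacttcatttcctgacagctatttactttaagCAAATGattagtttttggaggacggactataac
Pdgfra is also expressed by fibroblasts and Cspg4 by pericytes. Of 10 pericyte and fibroblast markers, 1 (Acta2) passed the filter, with a summed level of 8.66 to 20.5 CPM in WT and 5.26 to 13.2 CPM in *Smchd1*-null samples. Col1a1 reached at most 2.57 CPM, Pdgfrb at most 0.69 CPM, and Lum and Anpep were at 0 in all 7 samples.

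Gpr17, a G protein-coupled receptor gene of committed precursors and newly formed oligodendrocytes, varied far more than the genes above. The gene (ENSMUSG00000052229.5, chr18:31942997-31949636, - strand) had 23.4, 26.9, 3.15 and 205 CPM in WT replicates 1 to 4, and 7.13, 10.5 and 23.4 CPM in *Smchd1*-null replicates 1 to 3. WT replicate 4 was 7.64-fold above the next highest sample, and WT replicate 3 was again the lowest. These are 1197 counts in WT replicate 4 (95% exact Poisson interval 194 to 217 CPM) and 12 counts in WT replicate 3 (1.63 to 5.50 CPM), so the gap exceeds counting error. Gpr17 overlaps Lims2 on the opposite strand by 188 bases of exon. Lims2 had 21.9 CPM in WT replicate 4 and at most 3.11 CPM in the other 6, and since counting was not stated to use strand, the assignment of reads between this pair is uncertain.

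Cnp and Mbp encode an enzyme of the myelin membrane and a main structural protein of compact myelin. Cnp (ENSMUSG00000006782.16, chr11:100574904-100591729, + strand) had 132.6, 182, 97.0 and 278 CPM in WT and 119, 141 and 108 CPM in *Smchd1*-null samples. It was thus well expressed in every library, with WT replicate 4 highest by 1.52-fold and WT replicate 3 lowest. Its exons overlap those of Dnajc7 on the opposite strand by 154 bases, but Dnajc7 was level, between 86.9 and 106 CPM in all 7 samples. Mbp (ENSMUSG00000041607.17, chr18:82475146-82585637, + strand), in contrast, had 3.91, 4.44, 0.262 and 96.2 CPM in WT and 1.13, 1.46 and 2.60 CPM in *Smchd1*-null samples. WT replicate 4 held 561 of its counts and the other libraries between 1 and 20. The single count in WT replicate 3 allows 0.00664 to 1.46 CPM, which overlaps the intervals of all 3 *Smchd1*-null samples, so the ranking at the low end is not resolved at this depth. Mbp had the highest coefficient of variation over 7 samples of all 13305 genes tested, 226%. The annotation lists 16 transcripts for the gene, which gene-level counts do not separate.

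**Figure D2:**
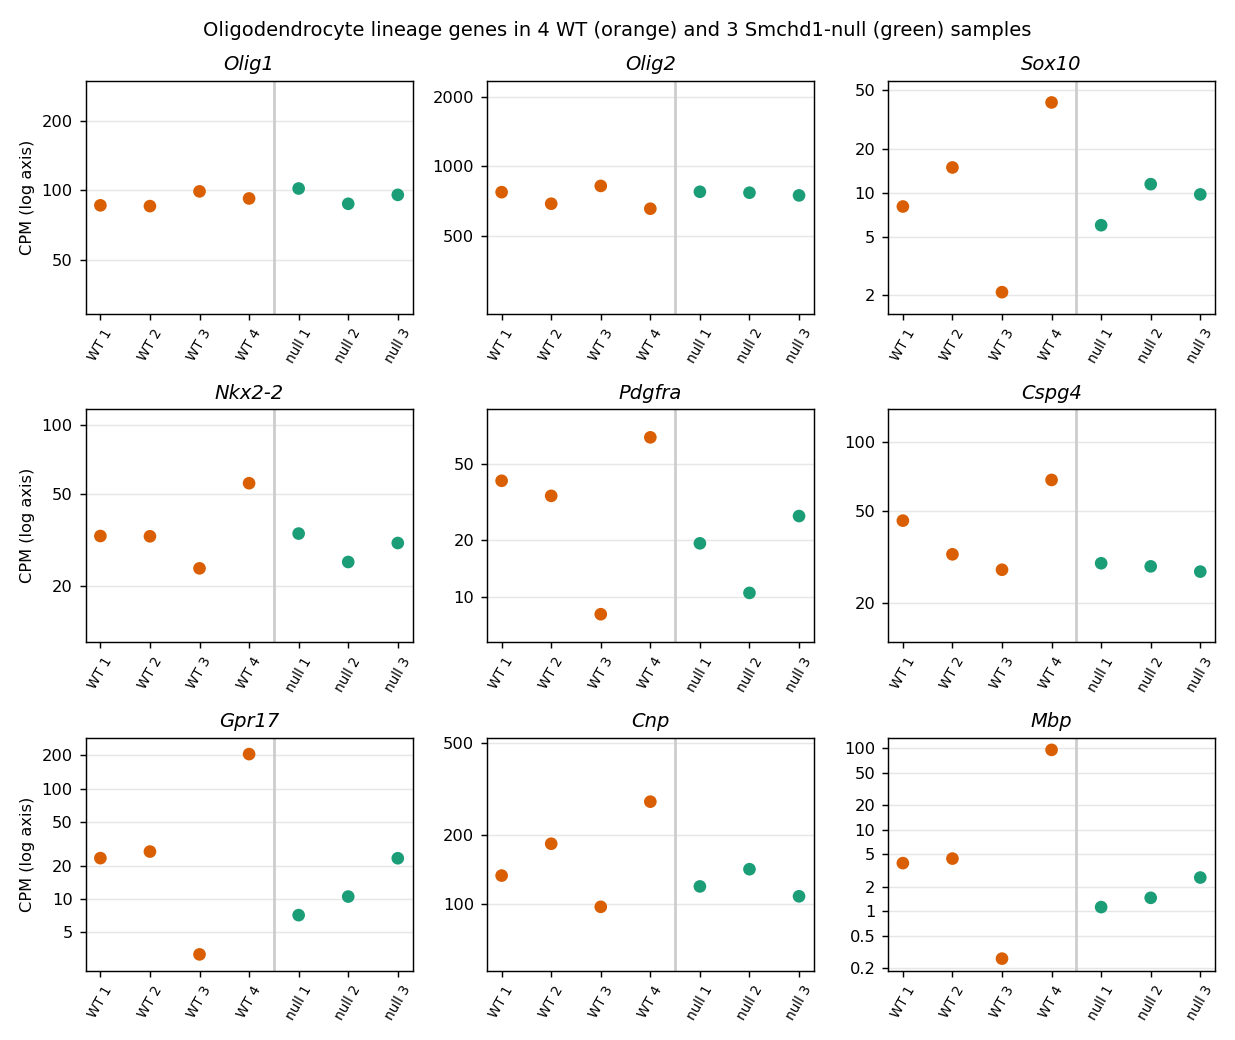
CPM of the 9 genes in each of 4 WT (orange) and 3 *Smchd1*-null (green) samples; each panel has its own log axis and each point is 1 library. Olig1 and Olig2 are flat across samples, while WT replicate 4 is the highest for the other 7 genes, reaching 96.2 CPM for Mbp and 205 CPM for Gpr17.

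Of the 9 genes, 7 were highest in WT replicate 4, all but Olig1 and Olig2, where 22.9% of the 13305 genes tested were highest in that sample. Relative to the median of the other 6 samples, its level was 47.4-fold for Mbp, 12.1-fold for Gpr17, 4.64-fold for Sox10, 3.01-fold for Pdgfra, 2.34-fold for Cspg4, 2.21-fold for Cnp and 1.76-fold for Nkx2-2, against 1.01-fold for Olig1 and 0.850-fold for Olig2. Gpr17 and Mbp, genes of later stages, thus had the largest excess of the 9, while Cnp, also a myelin gene, stood below Sox10, Pdgfra and Cspg4. Ranked by the ratio of WT replicate 4 to the highest other sample, Mbp was number 2 and Gpr17 number 10 of all genes tested, with Sox10 at 64 and Olig2 at 6670. The 20 first genes of this ranking included Cldn11, Trf and Myrf of the wider lists. At the other end, 6 of the 9 genes were lowest in WT replicate 3, where 13.3% of all genes tested were lowest: Sox10, Nkx2-2, Pdgfra, Gpr17, Cnp and Mbp. Among the 6 samples without WT replicate 4, the highest still exceeded the lowest 16.9-fold for Mbp, 8.54-fold for Gpr17, 7.10-fold for Sox10 and 5.02-fold for Pdgfra.

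Gpr17 and Mbp moved together across samples. Their rank order was identical in all 7 samples, from WT replicate 3 at the bottom through *Smchd1*-null replicates 1, 2 and 3 and WT replicates 1 and 2 to WT replicate 4. Outside WT replicate 4 the Mbp ranks rest on 1 to 20 counts, with overlapping Poisson intervals between neighbours. Gpr17 had 23.38 CPM in *Smchd1*-null replicate 3 and 23.44 CPM in WT replicate 1, so the exact order is not resolved. Of the 36 pairs of the 9 genes, Gpr17 with Mbp was the only one with an adjusted p under 0.05 by both measures (log-CPM, Pearson's r = 0.980, exact permutation p = 0.000198, adjusted over 36 pairs 0.00714; Spearman's rho = 1.0, p = 0.000397, adjusted 0.0143). The correlation was 0.953 without WT replicates 3 and 4, the samples farthest from the median of Gpr17, and 0.982 without WT replicate 4. Pdgfra and Mbp had r = 0.869 and rho = 0.929 (exact permutation p = 0.00179 and 0.00675, adjusted 0.0184 and 0.0607), and r was 0.833 without the same pair of samples. The relation of Sox10 with Pdgfra (r = 0.781, rho = 0.643, exact permutation p = 0.0351 and 0.139, adjusted 0.0527 and 0.208) rested on WT replicates 3 and 4, without which r was 0.0316.

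Olig2 ran the other way. Its level fell as that of Mbp rose, with r = -0.896 and rho = -0.893 (exact permutation p = 0.00258 and 0.0123, adjusted 0.0184 and 0.0633), and r was -0.816 without WT replicates 2 and 4. Against Sox10 the values were r = -0.932 and rho = -0.964 (p = 0.00238 and 0.00278, exact permutation, adjusted 0.0184 and 0.05), with r = -0.926 without the same samples. Leaving out WT replicates 2 and 4 changed r from -0.669 to -0.086 for Cspg4 and from -0.923 to -0.489 for Cnp. For Gpr17 it went from -0.910 to -0.864, for Pdgfra from -0.807 to -0.637 and for Nkx2-2 from -0.831 to -0.587. The span of Olig2 was only 1.26-fold, and all points share library, depth and scaling factor. Olig1 and Olig2 correlated with r = 0.396 (exact permutation p = 0.380, adjusted 0.441) and rho = 0.536 (p = 0.236, adjusted 0.293), and r was 0.157 without WT replicate 2 and *Smchd1*-null replicate 1. Each batch and each genotype holds fewer than 6 samples, the minimum used here for a correlation, so none is given within them. The 5 genes most like Olig2 in log-CPM over the 7 samples, of 13296 compared, were Psmc3ip, Rpia, Thg1l, Rras2 and Zfp747, with r from 0.973 to 0.998.

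**Figure D3:**
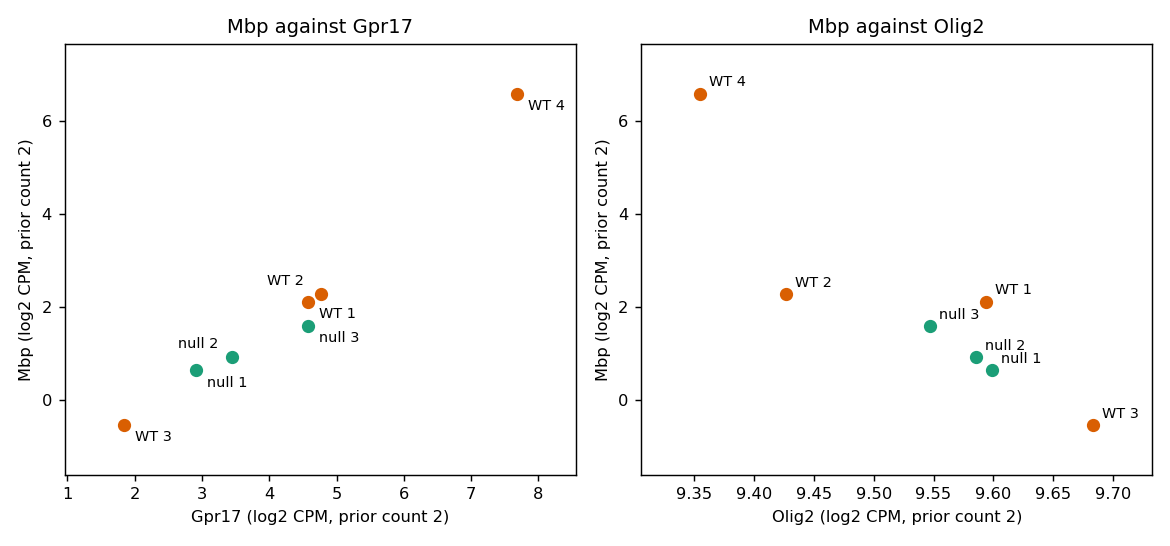
Mbp against Gpr17 (left) and against Olig2 (right), each in log2 CPM with a prior count of 2, for 4 WT (orange) and 3 *Smchd1*-null (green) samples. Mbp rises with Gpr17 over all 7 samples (r = 0.980), and falls with Olig2 (r = -0.896) over an Olig2 range of 1.26-fold.

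WT and *Smchd1*-null samples were compared with the fit of the study across all 13305 genes. None of the 9 genes had an adjusted p under 0.05, which 0.0902% of all genes tested had, and none had one under 0.25, against 1.08% of all. By limma, 0 of the 9 had an unadjusted p under 0.05, while edgeR gave 3 (Cspg4, Gpr17 and Mbp) and DESeq2 1 (Cspg4), also with no adjusted p under 0.25. Of all genes tested, 13.9%, 5.07% and 4.46% had such a p in these fits. The count was 5 without WT replicate 3 (Pdgfra, Cspg4, Gpr17, Cnp and Mbp), where 9.07% of all genes had one, and 1 (Cnp) with the batch covariate, where 7.97% did. Without WT replicate 4 it was 0 by limma, edgeR and unweighted voom, where 10.7%, 4.17% and 4.09% of all genes had one. It was also 0 with the batch covariate and without that sample, where 7.35% did. All but the first of these fits without WT replicate 4 were chosen after seeing the data. In none of the 9 did the groups separate without overlap, against 5.53% of all genes.

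The differences of Olig1 and Olig2 were bounded most tightly. The log2 fold change, *Smchd1*-null over WT, was 0.04 ± 0.12 (SE) for Olig1, with a 95% interval of -0.22 to 0.31, and 0.02 ± 0.11 for Olig2, with -0.21 to 0.25. Both changed sign in some alternative fits, as they did with library size in place of TMM. Sox10 had 0.29 ± 0.58 (-0.94 to 1.53), although its mean level was 9.06 CPM in the *Smchd1*-null samples (SD 2.78) and 16.6 CPM in WT (SD 17.3). The fit works on the log scale with weights, which were 0.447 for WT replicate 4 and 1.29 for WT replicate 3. The fold change of Sox10 was -0.86 with edgeR, so no direction can be given. Nkx2-2 and Cnp had -0.16 ± 0.21 (-0.61 to 0.30) and -0.14 ± 0.22 (-0.61 to 0.34).

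Fold changes were lower than 0 for Pdgfra, Cspg4, Gpr17 and Mbp in every fit run, none of them passing the test with all 7 samples. For Pdgfra, with means of 38.0 ± 24.99 CPM in WT and 18.8 ± 8.06 CPM in *Smchd1*-null samples, it was -0.77 ± 0.51 (adjusted p = 0.487). Cspg4 had -0.40 ± 0.21 (adjusted p = 0.407), Gpr17 -0.71 ± 0.81 (adjusted p = 0.687) and Mbp -0.97 ± 1.08 (adjusted p = 0.683). The 95% interval of Mbp, from -3.29 to 1.35, includes both large falls and rises. Without WT replicate 4, Gpr17 had -0.09 ± 0.58 and Mbp -0.08 ± 0.75, while Pdgfra kept -0.54 ± 0.48 and Cspg4 -0.27 ± 0.19. Without WT replicate 3, Pdgfra fell by 1.58 with an adjusted p of 0.141, under 0.25, where 0.327% of all genes in that fit passed.

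Within batches the values were set side by side without a test, and WT replicate 1, sequenced in both, was left out, which leaves 1 WT sample in batch 1 and 1 *Smchd1*-null sample in batch 2. The difference in mean log-CPM, *Smchd1*-null minus WT, was -1.23 in batch 1 and 0.15 in batch 2 for Pdgfra, -1.59 and -0.19 for Gpr17, and -1.51 and -1.43 for Mbp. Cnp (-0.49 and -0.61), Cspg4 (-0.15 and -0.67) and Nkx2-2 (-0.16 and -0.25) also lay below 0 in both batches, as did Sox10 (-0.81 and -0.01), whose fold change in the fit of all 7 samples was above 0. Olig1, with 0.14 and 0.00089, and Olig2, with 0.17 and 0.03, lay above 0 in both. The batch 2 values average WT replicates 3 and 4. Against WT replicate 3 alone, *Smchd1*-null replicate 3 was higher for Sox10, Nkx2-2, Pdgfra, Gpr17, Cnp and Mbp. For Cnp this was 108 against 97.0 CPM, and for Mbp 2.60 against 0.262 CPM. It was lower for Cspg4 (27.3 against 27.8 CPM), Olig1 and Olig2. The signs in batch 2 thus depend on WT replicate 4 for all of the 9 genes but Pdgfra and Cspg4.

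**Figure D4:**
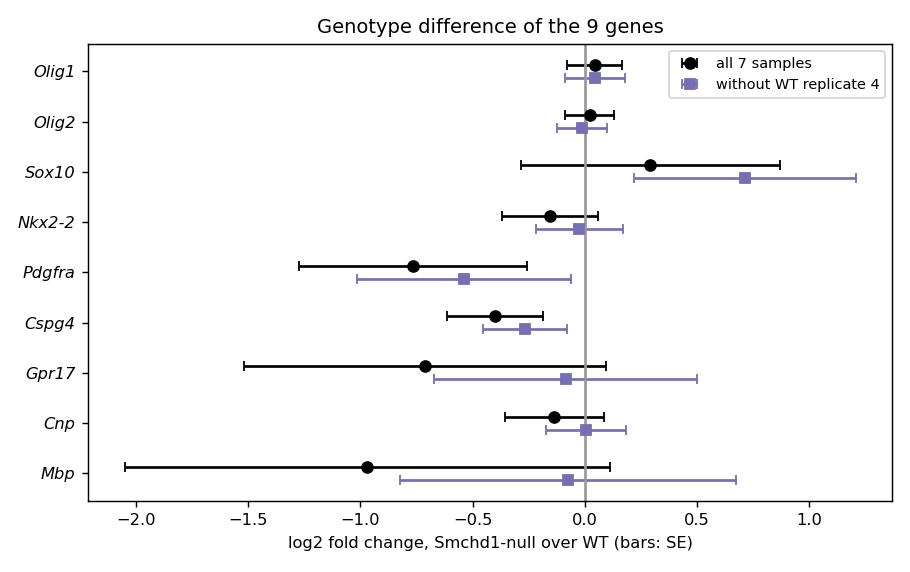
Log2 fold change of *Smchd1*-null over WT for the 9 genes, with SE, from all 7 samples (black circles) and without WT replicate 4 (purple squares). Olig1 and Olig2 sit near 0 with short bars, and Mbp moves from -0.97 to -0.08 and Gpr17 from -0.71 to -0.09 when WT replicate 4 is left out.

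Other genes of the lineage were described with 5 lists, which hold 92 genes besides the 9. After the filter, 66 could be tested, and none had an adjusted p under 0.25 in limma, edgeR or DESeq2. At an unadjusted p under 0.05 there were 14, 10 and 8 of the 66, against 13.9%, 5.07% and 4.46% of all genes tested. The count at 0.25 turned on single libraries: it was 21 of 65 tested without WT replicate 2 and 22 of 70 tested without *Smchd1*-null replicate 3, fits in which 22.7% and 23.5% of all genes passed. The median log2 fold change of all genes was 0.00.

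Of 18 OPC and early genes, 15 were tested, with a median log2 fold change of -0.05 (0.10 without WT replicate 4), and 10 of them were highest in WT replicate 4. The most abundant in WT were Ptprz1 (830 to 1548 CPM in WT and 753 to 1188 in *Smchd1*-null samples), a receptor phosphatase of precursors and radial glia, Bcan (359 to 529 and 339 to 425 CPM), and Cspg5. For Cspg5 the groups did not overlap, with 321 to 434 CPM in WT and 279 to 290 CPM in *Smchd1*-null samples, but the adjusted p was 0.29.

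Of 34 myelin genes, 17 were tested, 14 had a fold change below 0 and 14 were highest in WT replicate 4, with a median log2 fold change of -0.46 (-0.18 without WT replicate 4). Their summed level, over all 34, was 895, 846, 977 and 1888 CPM in WT replicates 1 to 4, and 756, 833 and 963 CPM in *Smchd1*-null samples. The list's most abundant genes are not particular to myelin: Car2, a carbonic anhydrase, had 386 to 482 CPM in WT and 418 to 449 CPM in *Smchd1*-null samples, Cd9 63.7 to 347 and 72.4 to 159 CPM, and Sirt2 73.7 to 242 and 78.5 to 87.8 CPM. Myrf, a transcription factor that drives myelin genes, had 23.7 CPM in WT replicate 4 and 1.501 to 4.396 CPM elsewhere. Genes of mature myelin were low in that sample, with 4.12 CPM for Mag, 0.86 CPM for Mog and 0.51 CPM for Mobp, and Mal was at 0 in all 7 samples.

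All 23 regulators were tested, with a median log2 fold change of -0.19, and 12 were highest in WT replicate 4. The most abundant, Qk, an RNA-binding protein gene required for myelination, had 562 to 842 CPM in WT and 493 to 685 CPM in *Smchd1*-null samples, while Sox4 ranged from 480 to 738 CPM and Tcf4 from 421 to 531 CPM over all samples. Among PDGF ligands and receptors, 2 of 5 were tested, Pdgfa and Pdgfc. Pdgfa, which encodes a ligand of PDGFRA, had 13.9 to 29.7 CPM in WT and 24.2 to 32.5 CPM in *Smchd1*-null samples. Pdgfc had at most 7.58 CPM. Pdgfb, which was not tested, had at most 1.57 CPM. Neither tested ligand was highest in WT replicate 4. Sonic hedgehog signalling, which induces Olig2 in the embryo, had 9 of 12 genes tested and 2 highest in WT replicate 4, with a median log2 fold change of -0.13. Ptch1 (40.9 to 75.3 CPM in WT), Smo (39.4 to 64.4) and Gas1 (37.2 to 85.5) were the most abundant, while the ligand Shh reached at most 1.05 CPM and the target Gli1 at most 0.43 CPM.

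**Figure D5:**
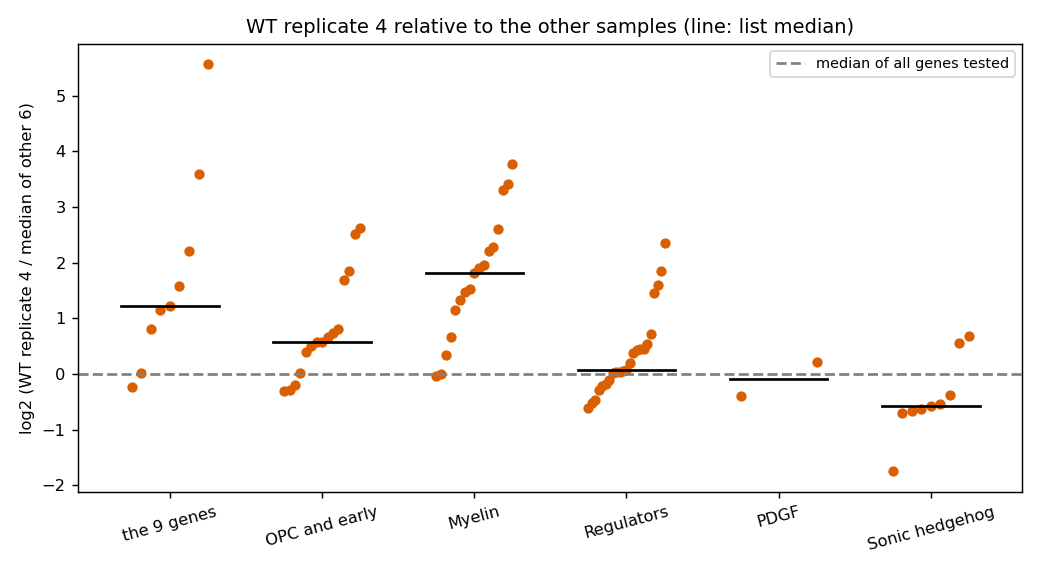
Log2 ratio of WT replicate 4 to the median of the other 6 samples for the tested genes of each list; each point is 1 gene, black lines are list medians and the dashed line is the median of all genes tested. The median fold was 2.34 for the 9 genes, 3.52 for myelin, 1.4997 for OPC and early genes, 1.05 for regulators, 0.960 for PDGF and 0.670 for Sonic hedgehog genes.

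Markers of other cell types are given beside the excess in WT replicate 4. All 6 tested astrocyte markers of 8 were highest in that sample, and the list summed to 1147 CPM there, with 432 to 591 CPM in the other WT samples and 335 to 556 CPM in *Smchd1*-null samples. Aldoc, an enzyme of glycolysis in astrocytes and radial glia, made up 833 CPM of it, Gja1 was between 85.7 and 134 CPM in WT, and Gfap reached 6.002 CPM. Aldoc was lower in *Smchd1*-null samples at an adjusted p of 0.23 (0.30 without WT replicate 4). Of 9 tested neuronal markers of 12, 6 were highest in WT replicate 4, with a summed level of 488 CPM there, 398 to 422 CPM in the other WT samples and 404 to 426 CPM in *Smchd1*-null samples, most of it Map2. Dcx had 36.2 CPM and Elavl3 58.1 CPM in that sample. None of 7 microglial and 6 endothelial markers passed the filter, with summed levels of at most 2.23 and 6.69 CPM, and of 5 Schwann cell markers 2 passed, with 3.93 to 20.8 CPM in sum, mostly Cdh19, while Pmp2 and Foxd3 were at 0. What part astrocyte- or neuron-like cells had in the excess of the lineage genes was not tested.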

How the data were processed

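Gene counts were deposited as whole numbers, 1 per gene and sample, not normalised, with a gene length column in bases. The authors base-called reads with Guppy, aligned them to mm10 by minimap2 (2.17 in the submitters' processing notes), and used featureCounts in long-read mode on primary alignments, then summed the reads of a sample over batches. Strand use was not stated, so counts of genes with antisense overlap are uncertain.

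IDs were matched to Gencode M21 (GRCm38): 55154 of 55335 matched and 181 did not. With R 4.3.3, edgeR 4.0.16 and limma 3.58.1, filterByExpr kept 13305 genes, which were TMM-scaled and fitted with voomWithQualityWeights, genotype as the only term and all 7 samples, as in the study, with two-sided tests and Benjamini-Hochberg adjustment over all 13305 genes. Adjusted p-values are from this fit unless another tool is named, and thresholds were 0.05 and 0.25. Log-CPM used a prior count of 2. Intervals cover 95%.

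The members and lists were chosen with earlier results of these data known. Named genes were the 9, Smchd1, the 3 most abundant genes of each wider list and the 2 of each marker list in WT, any list gene with an adjusted p under 0.25, and the 5 most like Olig2. Other named genes were chosen after their values were seen. Alternatives tried were DESeq2 1.42.0, the quasi-likelihood test of edgeR, unweighted voom, other scalings and filters, batch, length trend, a replicate block and each sample left out. The steps were tested on simulated data. Promoters are from RefSeq (GRCm38.p6).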

Additional observations from a re-analysis of the deposited data

Results flagged for a closer look

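In the WT group of 4 samples, 50 results were examined for a single sample far from the others by Dixon's criterion, and 10 were marked, all of them high in WT replicate 4. Of these, 11 genes had been added after their values were seen, and 6 of the marked results are among them, so the share marked is not compared with chance, which marks about 1 in 20 groups. Among the other 39 results, 4 were marked: Gpr17, Mbp, Sirt2 and Elavl3. Of the 9 genes, Gpr17 had 205 CPM in WT replicate 4 against 3.15 to 26.9 CPM in the other WT samples, and Mbp had 96.2 CPM against 0.262 to 4.44 CPM. Of the wider myelin genes, the values in WT replicate 4 were 96.4 CPM for Trf (9.33 to 14.9 in the other WT samples), 44.4 CPM for Cldn11 (3.91 to 4.46), 23.7 CPM for Myrf (2.10 to 4.396), 18.5 CPM for Enpp6 (0.262 to 2.44) and 242 CPM for Sirt2 (73.7 to 100.1). The same was found for the astrocyte marker S100b, which oligodendrocytes also express, with 65.0 CPM (3.41 to 11.5), the neuronal marker Elavl3 with 58.1 CPM (17.3 to 23.9), and Hdac1, a histone deacetylase gene, with 47.3 CPM (14.7 to 17.6).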

How the results depend on the processing

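The count of the 9 genes with an adjusted p under 0.05 was 0 in every fit. At 0.25 it was 0 to 1 when each sample was left out in turn, the 1 being Pdgfra without WT replicate 3, and 0 otherwise, including the replicate block, under which WT replicate 4 has no partner. Replicate numbers correlated by -0.0378, 0.363 and 0.0940 over genes, so they were not taken to pair the samples. For the wider genes the count at 0.25 was 4 of 57 tested with at least 10 counts in every sample (3.06% of all genes), where Sox10 and Mbp were not tested. It was 2 of 66 with the replicate block, alone (0.970% of all) or with the length trend removed (1.10%), and 2 of 65 with the batch covariate without WT replicate 4 (0.816%), chosen after seeing the data. With 1 sample left out it was 0 to 22, with 21 of 65 without WT replicate 2 and 22 of 70 without *Smchd1*-null replicate 3, where 22.7% and 23.5% of all genes were called.

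Sign changes of the log2 fold change were as follows. Olig1 had -0.00076 with library size alone, -0.019 with the length trend removed and -0.0027 without *Smchd1*-null replicate 1. Olig2 had -0.018 and -0.025 in the first 2 of these, -0.0062 without WT replicate 2 and -0.012 without WT replicate 4. Sox10 had -0.86 with edgeR, -0.87 with DESeq2, -0.28 without sample weights, -0.23 with the batch covariate, -0.30 with batch and without WT replicate 1, and -0.65 without WT replicate 3. Nkx2-2 had 0.0058 without *Smchd1*-null replicate 2 and Cnp 0.0041 without WT replicate 4. The difference in the log2 ratio of Olig1 to Olig2 ranged from -0.046 (without WT replicate 1) to 0.067 when a sample was left out, with -0.0092 without WT replicate 3, -0.037 without *Smchd1*-null replicate 1 and -0.017 without *Smchd1*-null replicate 3. The cause was not tested. With 1 sample left out, the highest values were 0.11 for Olig1, 0.095 for Olig2 and 0.71 for Sox10, and the lowest were -0.37 for Nkx2-2 and -0.44 for Cnp. The remaining 4 genes kept their sign in each fit run, Mbp from -3.92 to -0.08, Gpr17 from -2.24 to -0.08, Pdgfra from -1.58 to -0.06 and Cspg4 from -0.63 to -0.15. The WT levels without WT replicate 4 were also chosen after seeing the data. Depth limits Mbp most, with 1 to 20 counts outside WT replicate 4.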
